A study of Mus musculus with 7 samples.

Results

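The spleen library of run 2 held 88 CD4 T cells among its 4353 cells, 2.02% of the library (exact binomial 95% interval 1.62% to 2.48%, counting error only). They were selected on the counts themselves: a member had at least 3 UMIs (unique molecular identifiers, counted transcripts) of Cd3d, Cd3e, Cd3g, Lck and Thy1 together, at least 1 UMI of Cd4, none of Cd8a or Cd8b1, and fewer than 2 UMIs of the B cell genes Cd79a, Cd79b and Ms4a1. The 7 libraries of the series held 21763 cells in all. These 88 cells were a side population, because the library was sorted for live CD11b+ Ly6G+ neutrophils, which lack these genes.

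CD4 T cells recognise peptides on MHC class II molecules through an alpha beta T cell receptor, with CD4 as the co-receptor and the CD3 chains as the signalling part of the complex. CD8 T cells use CD8 and MHC class I instead and are known for cytotoxic functions, whereas CD4 T cells help B cells and other leukocytes, for instance through CD40 ligand. In the spleen CD4 T cells occupy the T cell zones of the white pulp, where naive cells recirculate and a smaller regulatory subset marked by Foxp3 restrains responses.

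The study profiled neutrophils of mouse blood, bone marrow and spleen by droplet single-cell RNA sequencing (10x Genomics), in 2 runs of healthy tissues and 1 library of experimental inflammation. The run 1 mice were aged 6 weeks. The inflammation library held cells of mice given K/BxN serum or IL-1β, beside healthy blood. Spleen run 2 came from untreated male C57BL/6J mice aged 8 weeks, with 3 mice pooled in 1 library and cells sorted by CD11b, Ly6G and exclusion of propidium iodide. The comparison groups below are other cells of the same library, and so carry the same genotype, age and handling. With 1 pooled library there is no replicate, no test was made, and every interval covers counting error only.

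The members' own values show how close they lay to the rule. Cd4 was seen as 1 UMI in 73 members, 2 UMIs in 13 and 3 UMIs in 2. The 5 T cell genes summed to between 3 and 23 UMIs per member with a median of 7. At the lower edge 6 members had exactly 3 such UMIs, and 2 cells with 2 UMIs met every other condition. B cell genes gave 1 UMI in 11 members and 0 in 77, and 2 further cells were kept out by 2 such UMIs. Another 3 cells were kept out because they had both Cd4 and Cd8 UMIs.

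Genes of the rule were present by construction: across the members Cd3d summed to 212 UMIs in 80 cells, Cd3e to 68 UMIs in 42 cells and Cd4 to 105 UMIs in all 88. The alpha chain constant gene Trac was not used by the rule. It was seen in 81.8% of members, 73.6% of T cells with a Cd8b1 UMI and 73.9% of T cells with neither co-receptor. It therefore does not bear on the CD4 part of the label. The B cells and neutrophils given next had no T cell UMI by choice, which lowers Trac there. Trac had 220 UMIs in 72 of the 88 members, against 12 UMIs in 1291 B cells (cells with at least 3 B cell UMIs and no T cell UMI) and 12 in 1645 neutrophils (cells with at least 5% of UMIs from 15 neutrophil genes and no T or B cell UMI). The genes of the sort were nearly absent: Ly6g had 0 UMIs in the members and Itgam, which encodes CD11b, had 2. Ly6g had 336 UMIs and Itgam 342 in the neutrophils.

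The same rule found 2 cells in blood run 2, 2 in bone marrow run 2 and 0 in the library of experimental inflammation, where Cd4 had 0 UMIs. The run 1 tables list 7346 to 8657 genes and have no row for Cd4, so that the rule could not be applied there. T cells by the 5 genes alone, with the same limit on B cell genes, were 15.1% of spleen run 2 (656 cells) and 2.30% of spleen run 1 (28 cells). The 2 spleen libraries differ in mouse age, 8 against 6 weeks, and their tables list 28692 and 7346 genes. The 2 shares thus come from unlike mice and tables. The other 5 libraries had between 6 and 24 such cells each. Spleen run 2 shared 1 to 30 cell barcodes with each other library, and 1 member carried a barcode that also occurred in bone marrow run 2.

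The 656 T cells of the library were 88 members, 246 Cd8b1-positive T cells (at least 1 Cd8b1 UMI and no Cd4 UMI), 9 with Cd8a alone, 3 with both co-receptors and 310 with neither. The cells with neither are the largest set, at 47.3% of T cells. Cd4 was sparse, with 127 UMIs in the whole library in 109 cells. Of these UMIs, 3 were in the B cells and 3 in the neutrophils. The rule thus takes only T cells in which a Cd4 transcript was caught, and how many of the 310 cells carry CD4 was not measured.

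Members had more UMIs than the B cells and neutrophils around them. They had 1059 to 4302 UMIs each, with a median of 1855.5, and summed to 168601 UMIs. The Cd8b1-positive T cells had a median of 2225.5 UMIs and summed to 564345. The median was 1431 in B cells and 764 in neutrophils. Members had a median of 842.5 detected genes, or 313.5 when each cell was thinned to 500 UMIs, against 303.5 in Cd8b1-positive T cells, 322 in B cells and 270 in neutrophils at the same depth. For a single gene, 3 UMIs over all members correspond to 17.8 CPM (the gene's UMIs scaled to the group's total UMIs in the usual way), which is the floor used for genes at 0.

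**Figure D1:**
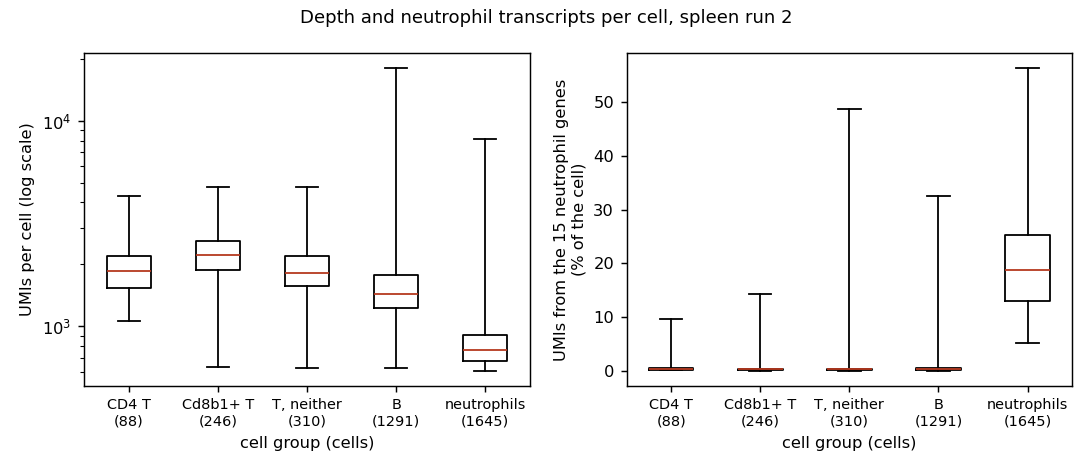
Left, UMIs per cell on a log scale; right, the percentage of each cell's UMIs from 15 neutrophil genes, by cell group of spleen run 2. Boxes span the quartiles, red lines are medians and whiskers reach the lowest and highest cell. The 88 CD4 T cells lie between 1059 and 4302 UMIs, above the neutrophil median of 764, and their median neutrophil percentage is 0.250.

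Neutrophil transcripts were present in the members at a low level. The 15 neutrophil genes summed to at most 9.67% of a member's UMIs with a median of 0.250%, compared with a median of 18.8% in neutrophils. S100a8, the most abundant of them, had 2378 CPM in members, 1820 CPM in Cd8b1-positive T cells, 3744 CPM in B cells and 114896 CPM in neutrophils. S100a8 and S100a9 stood in a ratio of 1.25 in members, 1.33 in Cd8b1-positive T cells and 1.59 in neutrophils. Of the 15 genes 14 had a UMI in the members and Ly6g had none, and 2 members had 5% or more neutrophil UMIs. The part of neutrophil RNA in the values below was tested only as follows. Leaving these 2 members out gave 228 genes higher and 338 lower than in all other cells. Against Cd8b1-positive T cells it gave 95 higher and 38 lower. A scaling without neutrophil, haemoglobin and immunoglobulin UMIs is given in the next paragraph.

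Against all other cells of the library, 2472 genes had a mean CPM of at least 50 over the 2 groups, and 218 of them (8.82%) were at least 2-fold higher in CD4 T cells while 338 (13.7%) were at least 2-fold lower. The higher genes included receptors, kinases and adaptors of T cell receptor signalling, and the lower genes were led by B cell and neutrophil genes. Since the 4265 other cells are mostly B cells and neutrophils, this comparison describes what sets the members apart from that mixture. The mixture also holds T cells. Of its 8466 UMIs of T cell receptor and CD3 chains, 3375 were in Cd8b1-positive T cells and 3978 in T cells with neither co-receptor. Over the settings of the last section the ratio ranged from 9.85 to 226 for Cd40lg, 6.58 to 64.0 for Cd28 and 6.05 to 39.1 for Izumo1r. The median log2 ratio of all compared genes was 0.19. Of the genes past 2-fold 39.2% were higher by CPM, 21.2% with TMM factors, 21.1% with median-of-ratios factors, 30.2% by CPM without neutrophil, haemoglobin and immunoglobulin UMIs and 48.5% by the mean CPM of each cell, which shifted the median of all compared genes by -0.29, -0.29, -0.14 and 0.11 on the log2 scale. Since a gene entered on the mean of both groups, 125 of the 218 higher genes were under 50 CPM in the other cells, and 214 of the 338 lower genes were under 50 CPM in the members. These entered through the group where they were high, so the counts below are descriptions of the lists. All genes named below by their rank remained at least 2-fold apart under these scalings.

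The 12 highest ratios were those of Cd4, which the rule used, and 11 genes that it did not. Cd40lg, which encodes CD40 ligand, had 16 UMIs in 16 members and 41 UMIs in 39 of the other cells, that is 94.9 CPM against 6.90 CPM (13.8-fold higher, 95% interval 7.20 to 25.0). Izumo1r, which encodes the folate receptor 4 of regulatory and anergic CD4 T cells, had 54 UMIs in 29 members, or 320.3 CPM against 29.3 CPM (10.9-fold, 7.90 to 14.9). Tnfrsf4, the costimulatory receptor OX40, had 22 UMIs in only 8 members (130.5 against 14.6 CPM), and 9 of these UMIs came from 1 cell. The costimulatory receptor Cd28 was more widespread, with 86 UMIs in 52 members and at most 5 in a cell, and reached 510.1 CPM against 63.3 CPM (8.06-fold, 6.30 to 10.2).

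Signalling molecules followed. Dok2, an adaptor that restrains T cell receptor signals, had 125 CPM against 14.98 CPM. Zap70, the kinase that binds the phosphorylated CD3 chains, had 148 CPM against 21.2 CPM (6.99-fold, 4.36 to 10.8). Ikzf2, which encodes the transcription factor Helios, had 21 UMIs in 9 members. Igfbp4, an insulin-like growth factor binding protein, had 225 CPM against 34.7 CPM. Ass1, the argininosuccinate synthase of arginine synthesis, had 47 UMIs in 29 members and 279 CPM against 43.1 CPM (6.47-fold, 4.64 to 8.86). Tesc, a calcium-binding protein, and Ly6c1 completed the 12, with 89.0 CPM and 130.5 CPM in the members.

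The lowest ratios belonged to other lineages. Of the 12 genes 9 were not used by the rule. Iglc3, an immunoglobulin light chain constant gene, had 1 UMI in the members and 4592 in the other cells. Ly6d, a B lineage surface protein, had 2 UMIs against 7353, and Cd74, the invariant chain of MHC class II, had 59 UMIs against 79499, or 349.9 CPM against 13380 CPM. Mzb1 and H2-DMb2, genes of the B lineage, had 1 and 2 UMIs. The neutrophil granule genes Ngp and Camp had 9 UMIs each, 53.4 CPM in members against 2333 and 2190 CPM in the other cells, and Wfdc21 had 6 UMIs. Gm43603 had 1 UMI against 1844.

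The gene lists describe the T cell genes by role. Over all 2472 compared genes 8.82% were at least 2-fold higher and 13.7% lower, which is the background to the list counts. The list of T cell receptor and CD3 chains was at least 2-fold higher in 7 of 7 compared genes, and 3 of these were used by the rule. Of 29 proximal signalling genes 20 were compared, and 16 of these were at least 2-fold higher, among them Lck and Thy1, which the rule used, and 7 that entered through the members' level. Lat, the membrane adaptor phosphorylated by Zap70, reached 599 CPM against 100.3 CPM. Among 13 transcription factors of T cells 5 were at least 2-fold higher: Tcf7, Lef1, Bcl11b, Ikzf1 and Satb1. Tcf7 had 291 CPM against 51.3 CPM, and Lef1 492 CPM against 111 CPM.

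Of 19 compared genes of naive and quiescent cells 9 were at least 2-fold higher and 2 were lower (Txnip and Cxcr4). Over all compared genes the shares were 8.82% and 13.7%. The 9 were Ccr7, Il7r, Lef1, Tcf7, Satb1, Igfbp4, Dapl1, Actn1 and Fam101b. Of these 9 genes 1, and of the 2 lower genes 1, entered through the group where they were high. Il7r, the receptor of the survival cytokine interleukin 7, had 208 CPM against 52.5 CPM. Klf2, the factor that maintains lymphocyte recirculation, had 1352 CPM against 1325 CPM, and its mRNA was seen in 72.7% of members, 76.1% of B cells and 60.4% of neutrophils. After thinning to 500 UMIs these shares were 39.8%, 48.8% and 46.8%.

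The list counts here stand beside 8.82% higher and 13.7% lower over all compared genes. Of 12 compared memory and effector genes 5 were at least 2-fold lower (Cd44, S100a6, S100a11, Lgals3 and Anxa2) and Lgals1 was higher. All 5 were higher in the neutrophils than in the members, for example Cd44, the hyaluronan receptor, at 884 against 83.0 CPM. Of 12 immediate early genes 4 were lower (Fos, Junb, Dusp1 and Zfp36) and 0 higher, and 2 of the 4 entered through the other cells. Fos had 0 UMIs in the members against 164 CPM in the other cells, so that the level was at least 9.24-fold lower. Of 16 compared interferon-stimulated genes 3 were higher (Igtp, Zbp1 and Ly6c1) and 5 lower. All of these 3 and 4 of the 5 entered through the group where they were high, so nothing is read from the count. Of the other lists, MHC class I had 0 of 11 genes past 2-fold, the Gimap family 3 of 7 higher and cytokine receptors 2 of 12 higher (Il7r and Il21r). The cell cycle list had Pcna higher and Hmgb2 lower of 6, and the survival list Bcl2 higher and Mcl1 and Birc3 lower of 6. Pcna and 1 of the 2 lower survival genes entered through the group where they were high. From counts this small nothing is read.

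Of 15 B cell genes 15 were at least 2-fold lower, of which the rule limited Cd79a, Cd79b and Ms4a1, and 14 of 14 compared neutrophil genes were lower, as were 3 of 3 plasma cell genes, 3 of 5 natural killer genes (Gzma, Tyrobp and Fcer1g), Ly6c2 of the monocyte list and Hbb-bs of the erythroid list. The plasma cell, monocyte and erythroid genes, 9 of the B cell genes and 6 of the neutrophil genes were under 50 CPM in the members and entered through the other cells. No gene of the lists for gamma delta T cells, dendritic cells, platelets or the sort markers reached the level for comparison. In the members the gamma delta list had UMIs of 1 gene of 7, Trdc, in 3 cells.

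The second comparison set the members against Cd8b1-positive T cells of the same library. Of 2321 compared genes, 98 (4.22%) were at least 2-fold higher in CD4 T cells and 40 (1.72%) at least 2-fold lower, and the median log2 ratio was 0.15. The highest ratios that the rule did not fix were those of Ly6c1, Tnfrsf4, Cd81 and Izumo1r, and the lowest those of Ly6c2, Ms4a4c, Nkg7 and Ccr9. Of the 98 higher genes 64 were under 50 CPM in Cd8b1-positive T cells, and of the 40 lower genes 29 were under 50 CPM in the members, so that most entered through the group where they were high. The balance depended on scaling: of the genes past 2-fold 71.0% were higher by CPM, 33.3% with TMM factors and 40.7% with median-of-ratios factors, which shifted the median of the compared genes by -0.23 and -0.18 on the log2 scale. Ribosomal protein genes took 34.4% of the UMIs of members and 40.1% of those of Cd8b1-positive T cells, with per-cell values of 16.3% to 48.7% and 3.01% to 50.3%.

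**Figure D2:**
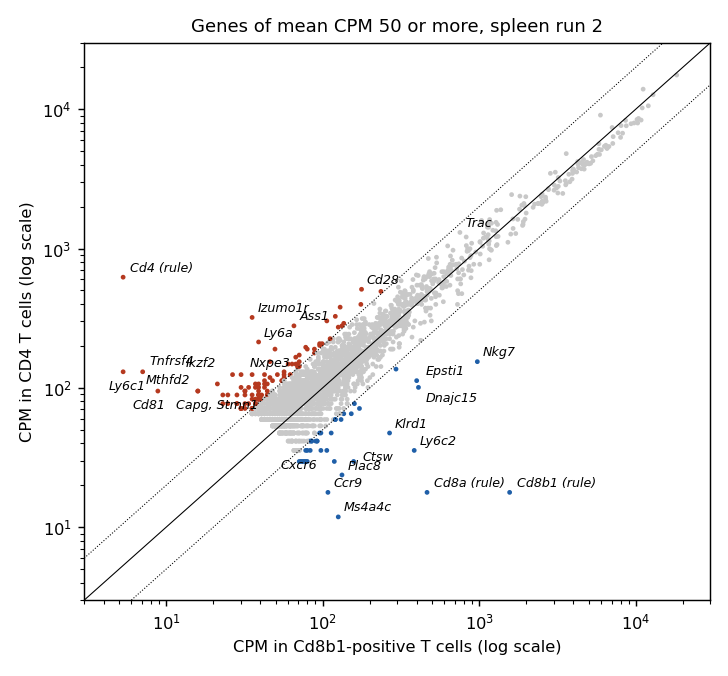
CPM of each of the 2321 compared genes in Cd8b1-positive T cells (horizontal) and CD4 T cells (vertical) of spleen run 2, both on log scales. Red points are at least 2-fold higher and blue points at least 2-fold lower in CD4 T cells; the solid line marks equal levels, dotted lines 2-fold, and genes at 0 are drawn at the floor of 3 UMIs. Izumo1r and Cd28 stand above the dotted band, and Nkg7 (154 against 973 CPM) and Ly6c2 (35.6 against 385 CPM) stand below it; Cd4, Cd8a and Cd8b1 were fixed by the rule.

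Several genes of the CD4 lineage list stood among the highest. Of its 12 genes 5 were compared (Cd4, which the rule used, Gata3, Tnfrsf4, Izumo1r and Tnfsf8), and as each entered through the members' level their number says nothing about the list. Izumo1r (chr9:14885814-14903951, GRCm38) had 320.3 CPM in members and 35.4 CPM in Cd8b1-positive T cells, a ratio of 9.04 (5.32 to 15.9). It was seen in 33.0% of members, 20.6% of T cells with neither co-receptor, 4.88% of Cd8b1-positive T cells, 0.155% of B cells and 0.182% of neutrophils, and in 18.2%, 11.0%, 1.63%, 0.0775% and 0.122% after thinning to 500 UMIs. Tnfrsf4 (chr4:156013595-156016613) had 22 UMIs in 8 members against 4 UMIs in 1 Cd8b1-positive T cell (18.4-fold, 6.25 to 73.5).

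Cd40lg (chrX:57212143-57224042) had a mean of the 2 levels just under the minimum for comparison, and is given as a list member. It had 16 UMIs, each in a different member, against 1 UMI in 246 Cd8b1-positive T cells, 94.9 against 1.77 CPM (ratio 53.6, 95% interval 8.32 to 2246). It had 0 UMIs in B cells and 0 in neutrophils. After thinning to 500 UMIs it was seen in 4.55% of members (1.25% to 11.2%) and in 0 of 246 Cd8b1-positive T cells, which allows a share of cells with a UMI of up to 1.22% by 3 cells of the total, or 1.49% by the exact interval.

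The transcription factors of the CD4 and CD8 choice had few UMIs. Gata3, which promotes CD4 lineage development, had 13 UMIs in 13 members, 77.1 against 28.4 CPM (2.72-fold, 1.203 to 6.03). Zbtb7b, which encodes the CD4 lineage factor ThPOK, had 11 UMIs in 10 members and 4 UMIs in Cd8b1-positive T cells, 65.2 against 7.09 CPM (ratio 9.20, 2.73 to 39.6), below the minimum for comparison. Runx3, the factor of the CD8 lineage, had 71.2 against 172 CPM, 2.41-fold lower (1.32 to 4.83). Tox, needed for the development of CD4 T cells, had 65.2 against 15.9 CPM (ratio 4.09, 1.54 to 11.2), also below that minimum.

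Other members of the 12 highest were surface proteins and enzymes. Cd81, a tetraspanin, had 94.9 against 8.86 CPM. Ly6a, the antigen Sca-1, had 36 UMIs in 22 members, 214 against 39.0 CPM (5.48-fold, 3.14 to 9.77). Ass1 had 279 against 65.6 CPM (4.25-fold, 2.71 to 6.73). Mthfd2, a mitochondrial enzyme of folate metabolism, was spread over 17 members with 18 UMIs (107 against 21.3 CPM). Stmn1, a microtubule regulator, and Capg, an actin capping protein, both had 16 UMIs in members and 9 in Cd8b1-positive T cells. Cd81, Ly6a and Capg were also abundant in B cells, at 400.4, 333 and 352 CPM, and the 15 B cell genes summed to 1595 CPM in members (Ebf1 at 0) and 1409 CPM in Cd8b1-positive T cells, whose part in these genes was not tested. Ikzf2 (4.69-fold, 2.30 to 9.77) and Nxpe3 (4.13-fold, 2.08 to 8.35) closed the set. Cd28 was outside these 12, at 510.1 against 177 CPM (2.88-fold, 2.13 to 3.88).

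Several genes of the CD8 lineage list stood among the lowest. Of its 16 genes 10 were compared and 7 were at least 2-fold lower: Cd8a and Cd8b1, which the rule set to 0, Ctsw, Ccr9 and Klrd1, which entered through the Cd8b1-positive T cells, and Runx3 and Nkg7. The number past 2-fold thus says little about the list. Nkg7 (chr7:43437138-43438246), a protein of cytotoxic granules, had 26 UMIs in 8 members against 549 UMIs in 194 Cd8b1-positive T cells, 6.31-fold lower (4.26 to 9.74). After thinning to 500 UMIs it was seen in 4.55% of members, 35.8% of Cd8b1-positive T cells, 0.232% of B cells and 0.729% of neutrophils. Ccr9 (chr9:123767211-123783457), the receptor for the gut chemokine CCL25, had 0 UMIs in the 88 members and 61 UMIs in 48 Cd8b1-positive T cells, so that its level was at least 6.07-fold lower.

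Klrd1, a killer cell lectin-like receptor chain, had 8 UMIs in 5 members (47.4 against 268 CPM, 5.64-fold lower, 2.79 to 13.3). Ctsw, a cathepsin of cytotoxic lymphocytes, had 5 UMIs in 5 members against 89. Cxcr6, a chemokine receptor of effector and resident cells, had 5 UMIs in 3 members against 67. Plac8 and Ms4a4c had 4 and 2 UMIs against 75 and 71. Dnajc15, a mitochondrial co-chaperone, was in 17 members at 1 UMI each (101 against 409 CPM), and the interferon-inducible Epsti1 had 113 against 399 CPM (3.54-fold lower, 2.21 to 5.99).

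**Figure D3:**
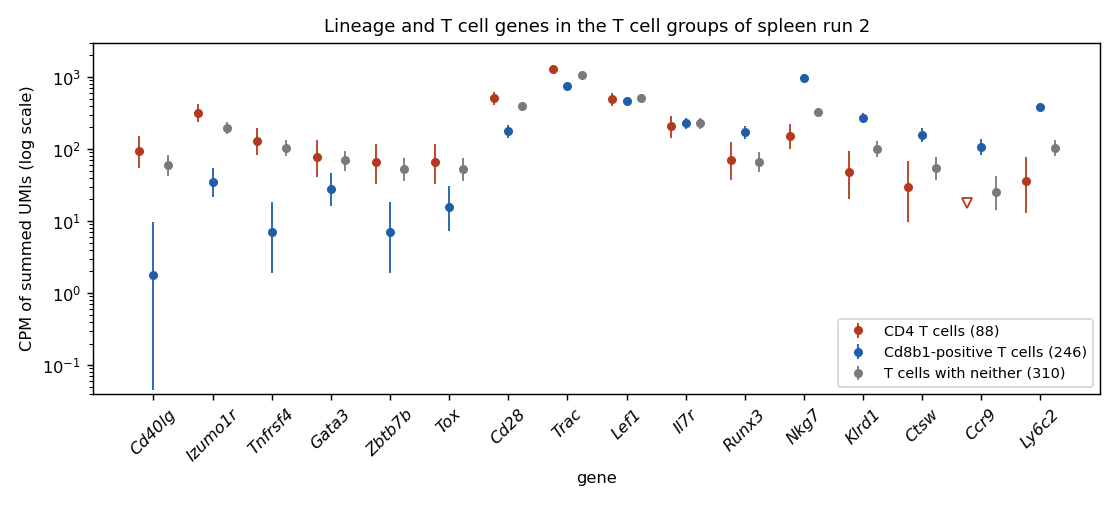
CPM of the summed UMIs (log scale) of lineage and T cell genes in CD4 T cells, Cd8b1-positive T cells and T cells with neither co-receptor of spleen run 2. Bars are exact Poisson 95% intervals of the counts, which cover counting error only, and an open triangle marks a gene at 0, drawn at the floor of 3 UMIs. From Cd40lg to Cd28 the red points of the CD4 T cells lie above the blue ones, and from Runx3 to Ly6c2 below them.

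Other T cell lists held few genes past 2-fold, and in lists of this size the background of 4.22% higher and 1.72% lower gives few as well, so nothing is read from these counts. None of the 7 T cell receptor and CD3 chain genes passed 2-fold, with a median log2 ratio of 0.34 beside 0.15 over all compared genes: Cd3e had 403 CPM in members and 404 CPM in Cd8b1-positive T cells, Cd3d 1257 against 1141 CPM, and Trac 1305 against 753 CPM (1.73-fold, 1.47 to 2.04). Of 23 proximal signalling genes 1 passed, Cd28. Of 18 naive and quiescence genes 1 passed, Igfbp4 (225 against 112 CPM), while Lef1 had 492 against 468 CPM, Il7r 208 against 227 CPM and Ccr7 344 against 271 CPM. No gene passed among 7 of the Gimap family, 14 cytokine receptors, 10 immediate early genes, 11 of MHC class I or 2 follicular helper genes.

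Smaller counts passed in the remaining lists. S100a6 was higher and Cxcr6 lower among 13 memory and effector genes, with S100a6 at 64 UMIs in 19 members (379.6 against 129 CPM). Ly6a and Ly6c1 were higher and Isg15 lower among 15 interferon-stimulated genes. Gata3 passed among 13 transcription factors, Stmn1 among 6 cell cycle genes and Pim1 among 5 survival genes. Mki67 and Top2a, which mark dividing cells, had 1 UMI each in the members. Of the lists of other cell types, Il1b was higher among 7 neutrophil genes, Klrd1 and Nkg7 were lower among 4 natural killer genes, 0 of 5 B cell genes passed, Ly6c2 was lower as the 1 compared monocyte gene, and Hbb-bs was lower of 2 erythroid genes. No gene was compared in the gamma delta, plasma cell, dendritic cell, platelet and sort marker lists.

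The 2 genes at the extremes of this comparison that share most of their sequence were Ly6c1 (chr15:75044018-75048920) and Ly6c2 (chr15:75108161-75112066), neighbouring genes for surface proteins of the Ly6C type. Ly6c1 had 22 UMIs in 16 members against 3 UMIs in 3 Cd8b1-positive T cells, 130.5 against 5.32 CPM (24.5-fold higher, 7.37 to 128). It was not particular to the members, being seen in 18.2% of them and 15.5% of T cells with neither co-receptor. Ly6c2 had 6 UMIs in 3 members, 4 of them in 1 cell, against 217 UMIs in 83 Cd8b1-positive T cells, 35.6 against 385 CPM (10.8-fold lower, 4.88 to 29.8). Of the 16 members with Ly6c1, 1 also had Ly6c2. Their coding sequences are identical at 384 of 393 bases in GENCODE vM21, and the 3′ untranslated parts at 96.4% of aligned bases with a longest identical run of 124 bases. Reads that fit both genes equally cannot be assigned, so both levels are uncertain to that extent. A stretch of 100 coding bases (positions 228 to 327 of the coding sequence, minus strand, GRCm38 chr15:75045471-75045570 for Ly6c1 and chr15:75108612-75108711 for Ly6c2) shows how little separates them, with the 2 differing bases in capitals.
Ly6c1: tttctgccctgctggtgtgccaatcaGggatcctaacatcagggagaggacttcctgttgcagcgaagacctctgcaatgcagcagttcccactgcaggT
Ly6c2: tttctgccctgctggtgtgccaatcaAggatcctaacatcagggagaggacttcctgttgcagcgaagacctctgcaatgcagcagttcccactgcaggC

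The beta chain of the T cell receptor uses 1 of 2 constant genes, Trbc1 (chr6:41538219-41539665) or Trbc2 (chr6:41546730-41548181). Their coding sequences are identical at 495 of 518 bases, with a longest identical run of 259 bases. The 3′ untranslated parts, of 219 and 174 bases, share 49.6% of aligned bases and no identical run over 8 bases. Where the reads fell was not examined, so the assignment of UMIs between the 2 genes was not tested. The 100 coding bases that differ most (positions 398 to 497 of the coding sequence, plus strand, GRCm38 chr6:41539233-41539332 and chr6:41547776-41547875) hold 15 of the 23 differences, shown in capitals.
Trbc1: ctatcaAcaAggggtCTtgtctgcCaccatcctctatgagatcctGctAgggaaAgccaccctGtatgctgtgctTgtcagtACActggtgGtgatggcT
Trbc2: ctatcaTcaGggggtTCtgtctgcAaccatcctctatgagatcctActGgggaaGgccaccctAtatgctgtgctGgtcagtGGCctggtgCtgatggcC

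All 88 members had a UMI of at least 1 of these genes, with a median of 6 UMIs of both together. Only Trbc2 was seen in 45 members, only Trbc1 in 4 and both in 39, a share of 44.3% with both (33.7% to 55.3%). Trbc2 gave 411 UMIs and Trbc1 177, so that Trbc1 made up 30.1% of the sum. Cd8b1-positive T cells had 121 cells with Trbc2 only, 22 with Trbc1 only, 100 with both (40.7%, 34.5% to 47.1%) and 3 with neither, and Trbc1 made up 33.9% of their sum. UMIs of both were seen in 0 of 1291 B cells and 0 of 1645 neutrophils. This allows shares of cells with both of up to 0.232% and 0.182% by 3 cells of the total. The exact interval allows 0.285% and 0.224%. Trbc2 alone was seen in 19 B cells and 21 neutrophils. These groups had no T cell UMI by choice, and their median UMIs per cell were below that of the members. Trbc1 and Trbc2 had only 7 and 19 UMIs in the B cells and 12 and 21 in the neutrophils. The 0 therefore follows largely from how these groups were chosen, and no contrast with the members is drawn from it.

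Among the 63 members with at least 5 UMIs of the 2 genes, where the share within a cell can be read, Trbc1 made up at most 20% in 35 cells (0% in 26), at least 80% in 9 and an intermediate share in 19. Cd8b1-positive T cells of the same depth had 65, 18 and 49 of 132 cells in these ranges. Intermediate cells were thus seen in both T cell groups. Members with the same number of UMIs of each gene had 3, 5 and 12 of each.

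**Figure D4:**
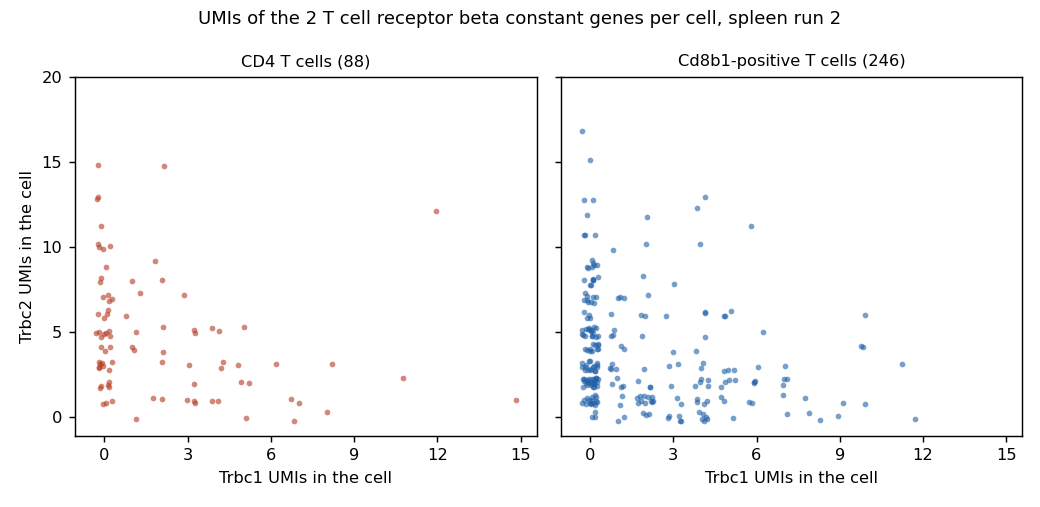
UMIs of Trbc1 (horizontal) and Trbc2 (vertical) in each of the 88 CD4 T cells (left) and 246 Cd8b1-positive T cells (right) of spleen run 2, with a small random shift so that points do not hide each other. Many cells lie along the vertical axis with Trbc2 alone (45 and 121 cells), and 39 and 100 cells lie off both axes.

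Genes linked to regulatory T cells were unevenly spread over the members. Of the 19 genes of that list 6 were compared with Cd8b1-positive T cells, and the 5 that were at least 2-fold higher (Ikzf2, Tnfrsf4, Tnfrsf18, Capg and Izumo1r) all entered through the members' level. Tnfrsf4 and Izumo1r are also in the CD4 lineage list. The defining gene Foxp3 had 0 UMIs in the 88 members, which allows a share of cells with a Foxp3 UMI of up to 3.41% by 3 cells of the total, or 4.11% by the exact interval, and does not limit the share of cells that express it. In the library Foxp3 had 20 UMIs in 16 cells: 12 were T cells with neither Cd4 nor Cd8 UMIs, 1 was a Cd8b1-positive T cell and 3 did not meet the T cell rule. A single cell had both Foxp3 and Cd4, and its 13 UMIs of B cell genes kept it out of the members. Il2ra had 2 UMIs in 2 members and Ctla4 6 UMIs in 3.

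The split of members by Izumo1r was chosen after the values were seen, and is a description. An Izumo1r UMI was found in 29 members (median 1955 UMIs per cell) and none in 59 (median 1840). Tnfrsf4 had 21 UMIs in 7 of the 29 cells and 1 UMI in the other 59, which is 363 against 9.03 CPM. Ikzf2 had 20 UMIs in 8 cells against 1 UMI. Tbc1d4, a regulator of glucose transporter traffic, had 13 UMIs against 1, and the inhibitory receptor gene Pdcd1 had 11 UMIs in 5 cells against 0. Genes of other kinds were also higher in the 29 cells: Klrd1 had 7 UMIs against 1, the neutrophil gene Lcn2 6 against 1, and Nkg7 277 against 90.3 CPM. All 6 Ctla4 UMIs were in the 29 cells. Of 2466 genes compared between the 2 sets 11.9% were at least 2-fold higher and 8.19% lower in the cells with Izumo1r, which is the background to these counts.

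Il7r, S1pr1 and Cd40lg stood the other way. Il7r had 104 CPM in members with Izumo1r and 262 CPM in those without, S1pr1, the receptor for exit from lymphoid organs, 69.2 against 199 CPM, and Cd40lg 3 UMIs against 13. Ccr7 had 242 against 397 CPM, less than 2-fold apart. Trac had 1176 against 1372 CPM. In the 310 T cells with neither co-receptor, which the split had not used, 64 had an Izumo1r UMI. There Tnfrsf4 had 42 UMIs in 13 of the 64 cells against 19 UMIs in 10 of the other 246 (328 against 41.7 CPM), Ikzf2 336 against 52.7 CPM, Pdcd1 78.2 against 8.78 CPM and Foxp3 93.8 against 8.78 CPM. Nkg7 stood the other way in that group, at 54.7 against 404 CPM.

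**Figure D5:**
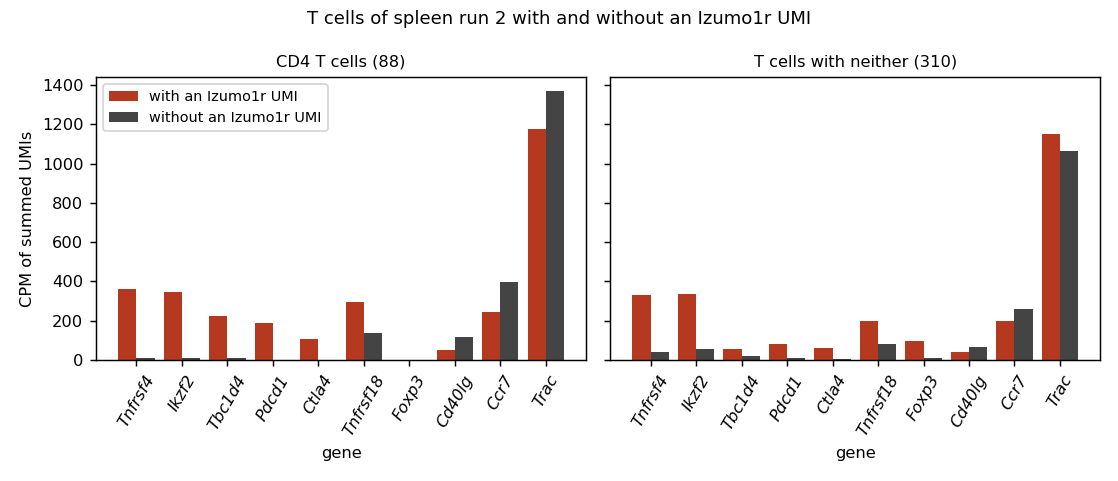
CPM of summed UMIs for 10 genes in CD4 T cells (left) and T cells with neither co-receptor (right) of spleen run 2, with (red) and without (dark) an Izumo1r UMI. The bars of Tnfrsf4, Ikzf2, Tbc1d4, Pdcd1 and Ctla4 are higher with Izumo1r in both panels, Foxp3 only appears on the right, and no error is drawn because each bar is 1 sum; the counts behind it are small.

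A few members carried genes of cytotoxic cells. Ccl5, a chemokine of effector and memory T cells, had 104 UMIs in 6 members, with 36 in the highest cell and 31 in the next, and 4 of these 6 cells also had Nkg7, 2 had Klrd1 and 1 had the natural killer receptor gene Ncr1. Their part in the values above was measured by leaving these 6 cells out, a choice made after the values were seen: the CPM ratio to Cd8b1-positive T cells went from 0.159 to 0.0402 for Nkg7, from 0.177 to 0.0730 for Klrd1 and from 0.0925 to 0.0339 for Ly6c2. Without these 6 members 114 genes were at least 2-fold higher and 51 lower than in Cd8b1-positive T cells. The list of 11 natural killer genes summed to 144 UMIs in 42 of the 88 members, with 9 genes seen and Klra4 and Zbtb16 at 0. Tyrobp and Fcer1g, which neutrophils also express, gave 59 and 38 of these UMIs, and the list stood at 15218 CPM in neutrophils against 854 CPM in members. It ranged from 0 to 8179 CPM per member and from 0 to 7382 CPM per Cd8b1-positive T cell. The cytokine genes Il4, Il17a and Il21 and the lineage factor Tbx21 had 0 UMIs in the members, and Ifng had 1. S100a4, a marker of memory T cells, had 0 UMIs in the 88 members and was rare elsewhere, in 57 of the 4265 other cells (1.34%). Among these were 1 of 246 Cd8b1-positive T cells, 3 of the 310 T cells with neither co-receptor, 5 B cells and 7 neutrophils. Most were in cells outside these groups. Il2 had 3 UMIs in 3 cells.

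Against the 310 T cells with neither Cd4 nor Cd8 UMIs, a group added after the values were seen, 39 of 2405 compared genes (1.62%) were at least 2-fold higher and 45 (1.87%) at least 2-fold lower in the members. Of these, 32 of the 39 were under 50 CPM in the 310 cells and 36 of the 45 under 50 CPM in the members, and so entered through the group where they were high. Lower genes included the natural killer receptor Klrk1 (5.93 against 125 CPM), the granzyme Gzma (29.7 against 214 CPM) and Id2, a transcription regulator of innate lymphocytes (77.1 against 295 CPM), beside neutrophil genes such as Ngp (53.4 against 596 CPM). The 310 cells included 7 with 5% or more neutrophil UMIs, at most 48.7% of a cell, and their part in these values was not tested. Higher genes included Tnfsf8, the CD30 ligand (89.0 against 32.6 CPM), and Tbc1d4 (83.0 against 25.7 CPM). For Cd40lg and Izumo1r the levels were less than 2-fold apart here: Cd40lg had 94.9 against 59.99 CPM and Izumo1r 320.3 against 195 CPM. Other genes high against Cd8b1-positive T cells were also seen in similar shares of members and of the 310 cells. These were Ikzf2 (10.2% and 11.3%), Tnfrsf4 (9.09% and 7.42%) and Ass1 (33.0% and 27.7%).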

How the data were processed

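The spleen library of run 2 was analysed, with the other 6 libraries used only to count members and shared barcodes. Per the labels and the study's methods, 3 mice were pooled per library, and cells were sorted and sequenced with 10x 3′ chemistry, and the deposited values are UMI counts per gene and cell, which the authors made with Cell Ranger on mm10. Per the study's methods, doublets were gated out by scatter at the sort, and cells with very many genes were left out of its analysis. The deposited table still holds cells of up to 2963 genes, while members had at most 1564. No doublet caller was run here, and free RNA was not corrected for. Reads that match several genes can be lost or split between near-identical genes.

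Counts were summed per cell group and divided by the group total (CPM). Genes with a mean CPM of at least 50 over both groups were compared, and 2-fold was used as the limit. A gene at 0 was set to a floor of 3 UMIs over the group. Intervals are exact at 95% (Poisson, Clopper-Pearson, conditional binomial) and cover counting error only. To compare depths, cells were thinned to 500 UMIs. Named genes are the 12 highest and 12 lowest CPM ratios of each comparison and members of the gene lists; others were chosen after their values were seen. The members and lists were chosen with earlier results of these data known. The split by Izumo1r and the comparison with T cells of neither co-receptor were added after the values were seen. Planned splits by Foxp3 and S100a4 had 0 members. Gene positions are from RefSeq (GRCm38.p6) and sequences from GENCODE vM21 on GRCm38, not from the cells.

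Tools were Python 3.11.15, numpy 2.4.6, scipy 1.17.1, pandas 2.3.3, matplotlib 3.10.9, Biopython 1.88, and R 4.3.3 with edgeR 4.0.16 (TMM factors) and DESeq2 1.42.0 (median-of-ratios factors), both for scaling only. The procedure was tested on made-up counts with known changes.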

Additional observations from a re-analysis of the deposited data

How the results depend on the processing

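Of the recomputed counts and shares 54 stayed close to the value reported (counts within 1.5 times) and 24 did not. Against all other cells (218 higher, 338 lower), the number higher was 119 with TMM factors, 118 with median-of-ratios factors, 412 by the mean CPM of each cell, 1891 with no minimum, 615 and 90 with minimums of 20 and 100 CPM, 339 against cells outside the T cell rule and 701 with at least 2 Cd4 UMIs, and the number lower was 1136, 699 and 183 with no minimum and minimums of 20 and 100 CPM. Against Cd8b1-positive T cells (98 higher, 40 lower), the number higher was 48 with TMM factors, 55 with median-of-ratios factors, 1607, 476 and 32 with these minimums and 636 with at least 2 Cd4 UMIs, and the number lower was 96, 80, 617, 231, 12 and 190 in the same order. The requirement of 2 Cd4 UMIs left 15 members, and over these few cells the floor put the ratio of Ccr9 to Cd8b1-positive T cells at 1.02, and those of Ms4a4c (0.878), Ctsw (0.700), Cxcr6 (0.620), Plac8 (0.554) and Epsti1 (0.554) were no longer 2-fold lower. That requirement, the comparison with cells outside the T cell rule and the removal of Ccl5 members were chosen after seeing the data. Other limits of the rule gave 74 to 90 members, and 0 members with Foxp3 in each. Limits that only remove members keep this 0 by construction. Only the lower minimum of T cell UMIs, which gave 90 members, could have changed it. These zeros, and that of members with S100a4, are counted among the 54 that stayed close. The share of members with both beta constant genes was 45.9% with at least 5 T cell UMIs and 42.7% without the Ccl5 members. Genes with under 10 UMIs in the members are limited by depth, and 1 pooled library says nothing of the spread between mice. No paired analysis was possible because each group is 1 set of cells of 1 library and no test was made.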
